A study of Mus musculus with 2 samples.

Results

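Natural killer (NK) cells of the irradiated mouse intestine were chosen by their raw transcript counts from 2 single-cell RNA libraries. A cell was taken with at least 3 UMIs (unique molecular identifiers, 1 per captured transcript) of Ncr1, Klrb1c, Eomes and Klre1 together. It also had to hold no UMI of Cd3e, Cd3d, Cd8b1, Il22, Il23r, Ebf1 or Pax5, and at most 1 of Lyz2. Cells had at least 500 UMIs, at least 200 genes and at most 20% mitochondrial UMIs. The rule found 84 NK cells among 19577 cells, 17 of them in the knockout (KO) library and 67 in the wild-type (WT) library. The KO library came from DPF2 KO mice given 10 Gy of X-rays, and the WT library from WT mice given the same dose, so that both groups were irradiated. The tissue of both was intestine, from which live immune cells had been sorted on GFP and tdTomato. How long after irradiation the tissue was taken, how many mice were used, their age and strain, the promoter behind the knockout and the sorted fractions in each library are not stated in the labels. With 1 library per genotype, no difference below has a replicate check, no test was possible, and every 95% interval covers counting error only.

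NK cells are innate lymphocytes that kill stressed or infected cells without a T cell receptor. NKp46 (Ncr1) and NK1.1 (Klrb1c) are activating receptors. Different activating receptors use different adaptors, among them DAP12 (Tyrobp) and the Fc receptor gamma chain (Fcer1g). Inhibitory Ly49 and CD94-NKG2 receptors that read MHC class I hold the cell back. Killing uses perforin, which opens the target membrane, and granzymes, which enter through it. Eomes and T-bet (Tbx21) are the T-box factors that set the identity of conventional NK cells, and interleukin 15, read through Il2rb, keeps them alive. In the gut they lie beside other innate lymphoid cells and many CD8 T cells, which share most of the killing machinery. CD8 T cells were taken here for comparison by at least 1 Cd8b1 UMI and 2 UMIs of Cd3e and Cd3d, with the same exclusions for Il22, Il23r, Ebf1, Pax5 and Lyz2. They numbered 35 in the KO library and 333 in the WT library.

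NK cells were scarce in both libraries and scarcer in the KO library. They made up 0.196% of the cells in the KO library (exact 95% interval 0.114 to 0.313) and 0.615% in the WT library (0.477 to 0.78), a KO over WT ratio of 0.318 (0.175 to 0.549). CD8 T cells were also a smaller share in the KO library, at 0.403% against 3.06% in the WT library, with a ratio of 0.132. These are shares of what was sorted and loaded, not of the intestine. B cells, called here by 3 or more UMIs of Ebf1 and Pax5 without Cd3e or Cd3d, were 34.7% of KO cells and 12.6% of WT cells.

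The exclusions removed a larger share of the candidates in the KO library. The receptor threshold was met by 70 KO cells and 171 WT cells, of which 24.3% and 39.2% stayed NK cells after the exclusions. An Ebf1 or Pax5 UMI was present in 35 of these 70 KO candidates and in 30 of the 171 WT candidates. Among all filtered cells the same shares were 62.3% in the KO library and 33.3% in the WT library, and among cells with Cd3e or Cd3d UMIs 45.4% and 25.6%. These B cell transcripts were thus more frequent in the KO library, where the NK share was lower. Their part in that share was not tested beyond dropping the exclusion. With Ebf1 and Pax5 allowed, 29 KO cells and 78 WT cells qualified and the ratio was 0.467 (0.294 to 0.723). With Cd3e and Cd3d allowed, 26 KO cells and 110 WT cells qualified and the ratio was 0.297 (0.186 to 0.458).

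**Figure D1:**
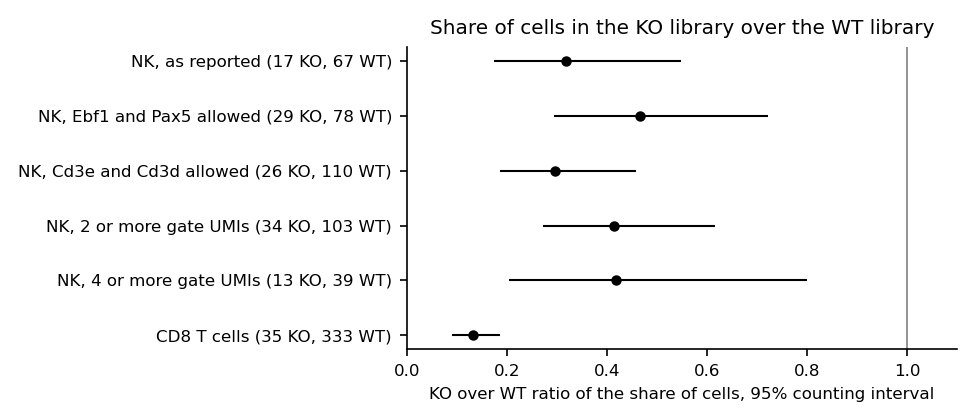
Ratio of the share of cells in the KO library over that in the WT library (x axis, linear) for the NK cells as reported, for 4 other versions of the NK rule and for CD8 T cells, with 95% counting intervals and cell numbers in brackets. All 5 NK ratios lie between 0.297 and 0.467, and every interval ends below 1.

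Depth was close in the 2 sets of NK cells. The median was 4489 UMIs per cell in the KO library (range 1199 to 14835) and 4398 in the WT library (range 1928 to 11977). Summed over cells, the KO NK cells held 104090 UMIs and the WT NK cells 319464, so levels in the KO library rest on fewer UMIs. Levels below are UMIs of a gene per 1000000 UMIs of those cells, written as CPM. Scrublet, a doublet caller, marked none of the KO NK cells and 1 of the WT NK cells, against 4.79% and 5.85% of all cells. The libraries shared 24 cell barcodes, none of them of an NK cell. NK cells with only Xist, only Y-linked, both and neither kind of transcript numbered 3, 5, 3 and 6 in the KO library and 12, 28, 5 and 22 in the WT library, so both libraries held cells of both sexes.

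Dpf2 (ENSMUSG00000024826, GRCm38 chr19:5896516-5913010), the targeted gene, encodes a BAF subunit that reads histone marks with PHD fingers; BAF is a nucleosome remodeller. It had 2 UMIs in KO NK cells (19.2 CPM, 2.33 to 69.4) and 15 in WT NK cells (47.0 CPM, 26.3 to 77.4), a ratio of 0.409 (0.0454 to 1.76). In CD8 T cells its level was 14.9 CPM in the KO library and 44.4 in the WT library (ratio 0.335, 0.0677 to 1.01). The lower value stood on the side of the KO label in both cell types, but at these counts neither interval leaves out 1. Which exons the knockout removes is unknown here, and UMIs from outside them would check nothing.

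The markers of the NK label were checked first. Of the 5 markers given for these cells, Eomes and Klre1 belong to the rule and are no evidence, whereas Prf1, Xcl1 and Gzma do not. Prf1 (ENSMUSG00000037202, chr10:61297833-61304680), which encodes perforin, had 279 CPM in KO NK cells and 263 in WT NK cells. Xcl1 (ENSMUSG00000026573, chr1:164931644-164935527), a chemokine that draws XCR1-bearing dendritic cells, had 1883 and 1393 CPM. Gzma (ENSMUSG00000023132, chr13:113093825-113100981), a granzyme, had 1364 and 1797 CPM. Per cell, Prf1 was between 0 and 16.5 UMIs per 10000 in the KO library, with a median of 0.674, and its median in the WT library was 2.16, where no cell held more than 10 UMIs of it. Gzma ran between 0 and 45.8 in the KO library with a median of 9.72, and between 0 and 81.3 in the WT library with a median of 14.3. The ranges of the libraries overlap for each gene. A UMI of at least 1 of these 3 was present in 15 of 17 KO cells and 64 of 67 WT cells.

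These 3 genes stood well above free RNA. After thinning every cell to 1000 UMIs, Prf1 was found in 17.6% of KO NK cells and 25.4% of WT NK cells, against 0.134% of KO B cells and 0.442% of WT B cells. Xcl1 was found in 52.9% and 47.8% of NK cells, against 0.604% and 0.295% of B cells. Gzma was found in 52.9% and 62.7% of NK cells, against 0.671% and 2.43% of B cells. Without thinning, Prf1 was in 52.9% and 64.2% of NK cells and in 0.729% and 2.05% of B cells, whose median depths were 3573.5 UMIs in the KO library and 3897 in the WT library. Gzma and Xcl1 occurred together in 8 of 17 KO cells and 43 of 67 WT cells.

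Markers of other cell types differed in level. Mast cell and basophil markers (Mcpt8, Cpa3, Fcer1a, Ms4a2) were at 0. The 8 ILC1 markers summed to 288 CPM in KO NK cells, 13 of their 30 UMIs in 1 cell, and 122 in WT NK cells, against 475 and 897 in the remaining cells of each library. Here and below, the remaining cells are all filtered cells outside the NK set, with the CD8 T and B cells included. The ILC2 list was at 163 CPM in the NK cells of both libraries, above the 109 and 127 of the remaining cells, with Il13 and Il5 at 0 and its UMIs in the KO library only from Gata3 and Klrg1. Cd8a had 1 UMI in KO NK cells and 5 in WT NK cells. T cell receptor genes left by the rule summed to 375 CPM in KO NK cells and 291 in WT NK cells, against 25.2 and 50.4 in B cells. A UMI of these genes was present in 70.6% of KO NK cells and 70.1% of WT NK cells. Together with Cd3e and Cd3d they summed to 1821 and 2449.5 CPM in CD8 T cells and 253 and 688 in the remaining cells. The CD8 T cell rule requires Cd3e or Cd3d UMIs and the NK rule forbids them, so the rules set part of this gap. Trac, in neither rule, had 48.0 CPM in KO NK cells and 283 in KO CD8 T cells. In the WT library it had 47.0 and 367. The B cell list held 3 UMIs in KO NK cells and 5 in WT NK cells, the myeloid list 2 and 20, the neutrophil list 2 and 9 and the epithelial list 6 and 9. The dendritic cell list summed to 48.0 CPM in KO NK cells and 153 in WT NK cells, against 122 and 84.2 in the remaining cells, with Xcr1 at 0 in both sets of NK cells. The stromal list summed to 202 CPM in KO NK cells and 488 in WT NK cells, where 53 of its 156 UMIs lay in 1 cell. Plasma cell transcripts, above all Igha, were present in every NK cell, at 3343 CPM in the KO library and 5105 in the WT library for the list, against 31083 and 44283 in the remaining cells. A further NK list of 10 genes, 2 of them rule genes (Ncr1 and Klrb1c), summed to 2344 CPM in KO NK cells and 3102 in WT NK cells, against 744 and 666 in CD8 T cells. The label was kept, with the reserve that ILC1, ILC2, T cell receptor and, in the WT library, dendritic cell markers were not absent.

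**Figure D2:**
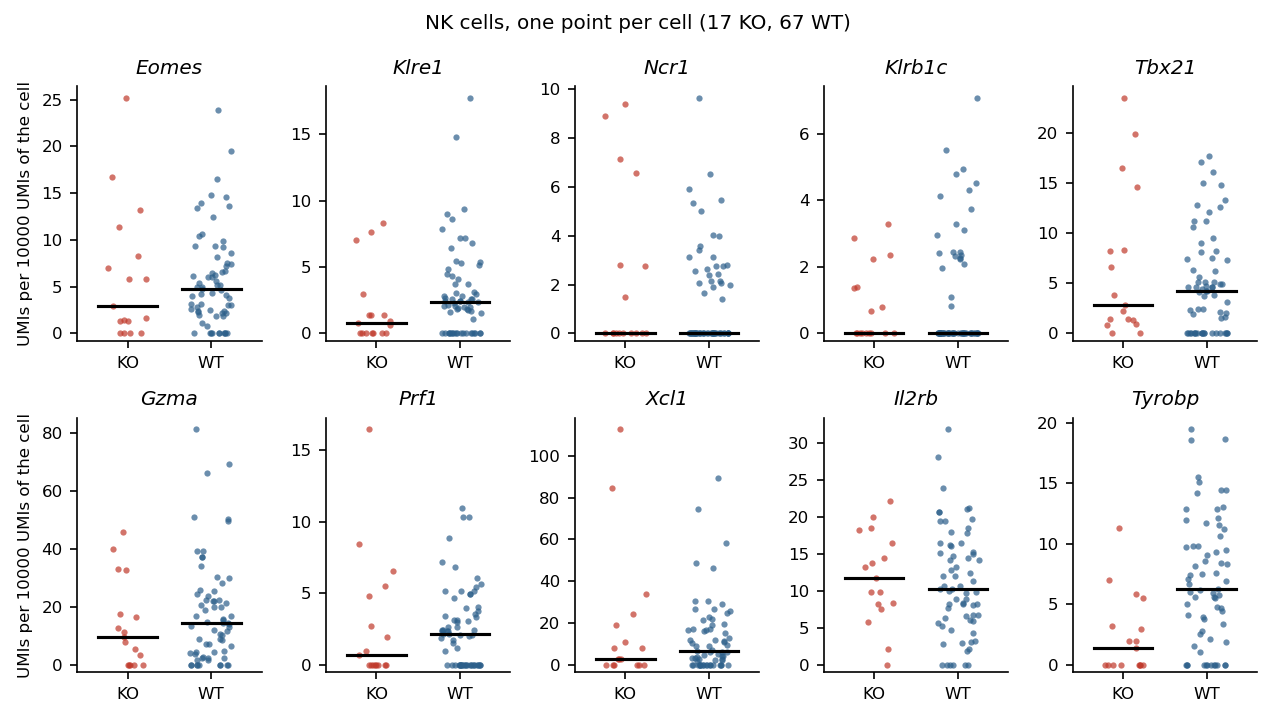
UMIs of 10 genes per 10000 UMIs of the cell (y axes, linear, each with its own range), with 1 point per NK cell in the KO library (left, 17 cells) and the WT library (right, 67 cells) and bars at the medians. Eomes, Klre1, Ncr1 and Klrb1c belong to the rule. Most genes had cells at 0 in both libraries, and the Xcl1 values spread up to 113 in the KO library and 89.5 in the WT library.

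Prf1 and Xcl1 are given markers outside the rule and are among the 12 highest genes over CD8 T cells described below. Of the 8 of those genes with a promoter entry, only these hold the motif marked here, so they do not stand for the others. The 150 bases before their RefSeq starts (GRCm38.p6) are shown 5′ to 3′ on the strand of the gene. Capitals mark CAGGAAG, the core of sites bound by ETS family factors such as Ets1.
Prf1, chr10:61297686-61297835, plus strand: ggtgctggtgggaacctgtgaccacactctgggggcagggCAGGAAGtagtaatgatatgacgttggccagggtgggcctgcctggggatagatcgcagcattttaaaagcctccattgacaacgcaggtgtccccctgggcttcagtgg
Xcl1, chr1:164935523-164935672, minus strand: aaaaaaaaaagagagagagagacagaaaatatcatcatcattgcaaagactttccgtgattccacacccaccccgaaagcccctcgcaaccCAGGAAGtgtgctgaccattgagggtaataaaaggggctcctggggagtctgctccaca
In the 250 bases before the start, on either strand, this motif was present in 10.5% of all 27025 genes with a promoter in the table. It was present in 2 of the 8 matched genes among the 12 highest in NK cells over CD8 T cells (Prf1 and Xcl1), and in 3 of the 10 matched genes among the 12 lowest. A T-box core (TCACACC, 3.31% of all genes) was present in 1 of 8 and 1 of 10, and a RUNX core (TGTGGTT, 4.46% of all genes) also in 1 of 8 and 1 of 10. A match is a description of letters and not a bound site. Klra13-ps, Eya1, Rbpms, Gem, Sntb1 and Ifi27l2a had no entry.

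Against CD8 T cells, NK cells held more of the DAP12 and Fc gamma adaptors, perforin, Xcl1, Ccl3, the interleukin 15 receptor chain Il2rb and the factor Irf8. They held less of the T cell genes Themis, Cd5 and Bcl11b and of the receptors Ccr9, Itgae, Itga1, Cxcr6 and S1pr1. Some of these receptors rest on few UMIs in KO NK cells, Itgae on 1. Levels were compared within each library, and a gene counted as different if it was at least 2-fold higher or lower in both. The log2 ratio was taken after adding 10 CPM to each level, so that it understates differences of low genes. A gene needed 100 UMIs over both cell types and libraries and a UMI in 5% of the cells of 1 group. Of 3983 such genes, 68 (1.71%) were higher in NK cells and 116 (2.91%) were lower, 4.62% in all. Among them, 2 higher and 3 lower genes belonged to the rules that chose the cells and are not results. The medians over all genes were −0.04 in the KO library and −0.09 in the WT library. WT CD8 T cells supply most UMIs, so a gene absent from CD8 T cells needed 236 CPM in NK cells to enter. A gene low in NK cells could enter through CD8 T cells alone. Counts of higher and lower genes, here and by list below, thus cannot be set against each other.

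**Figure D3:**
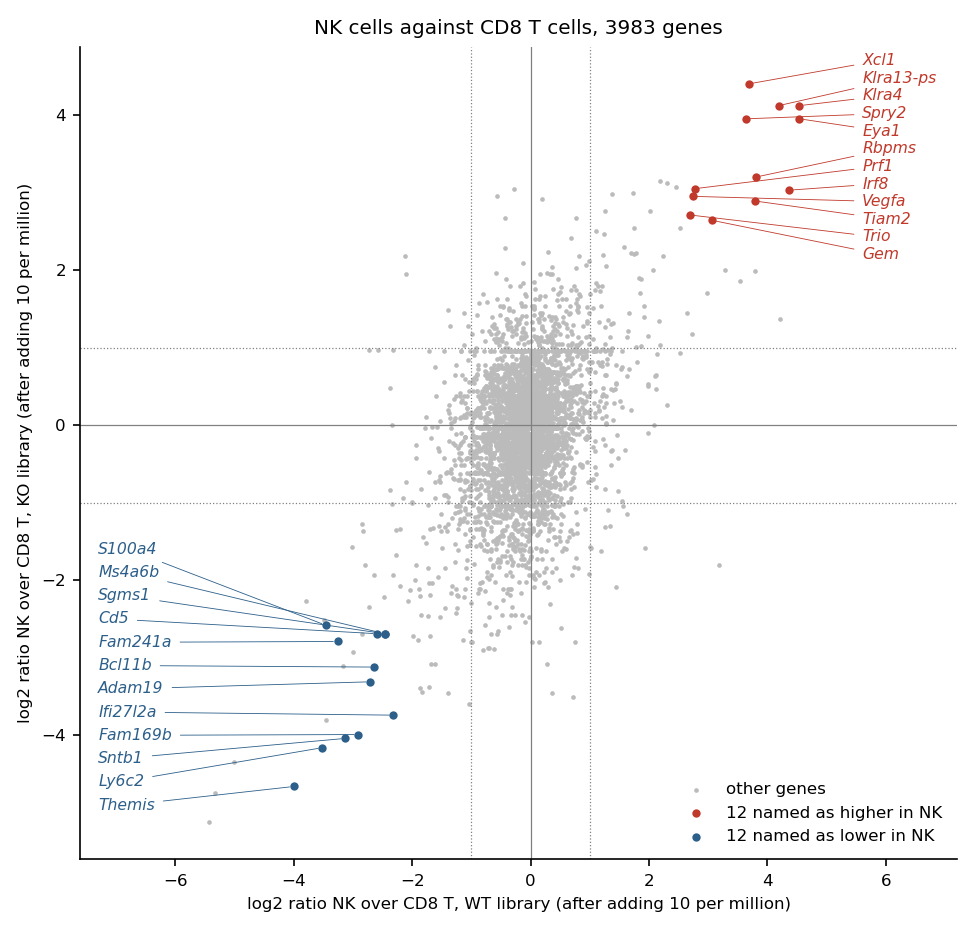
log2 ratio of NK cells over CD8 T cells in the WT library (x axis) and the KO library (y axis) for 3983 genes, after adding 10 CPM to each level, with dotted lines at 2-fold. The 12 genes named as higher (red) and the 12 named as lower (blue) lie beyond 2-fold in both libraries.

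Receptors and adaptors set the NK cells apart. Of 11 eligible activating receptors and adaptors, 4 were higher (Tyrobp, Fcer1g, Klra4 and the rule gene Klre1) and none lower, with medians of 0.69 and 0.54. Tyrobp had 298 CPM in KO NK cells and 109 in KO CD8 T cells, and 682 in WT NK cells and 27.5 in WT CD8 T cells. Fcer1g had 365 against 84.4 CPM in the KO library and 720 against 42.9 in the WT library. The NK over CD8 T ratios of Tyrobp were 2.73 (1.53 to 4.95) in the KO library and 24.8 (18.3 to 34.2) in the WT library, and those of Fcer1g 4.33 and 16.8. Klra4, a Ly49 family receptor, had 163 CPM in KO NK cells and no UMI in KO CD8 T cells, at least 11-fold higher by the floor of 3 UMIs per group. In the WT library it had 309.9 against 3.70 CPM. Klra13-ps, annotated as a pseudogene of the same family, followed it at 163 and 297 CPM in NK cells. Ly49 genes are near-identical copies, so their split between members is uncertain.

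Other NK receptors were shared with CD8 T cells. Klrk1 (NKG2D), which reads stress ligands, was at 375 and 338 CPM in KO and WT NK cells, against 228 and 230.2 in CD8 T cells. Klrc1 (NKG2A), an inhibitory receptor, was lower in NK cells, at 259 against 556 CPM in the KO library and 197 against 375 in the WT library, but missed 2-fold in the WT library, and was chosen after its values were seen. Of 6 eligible inhibitory receptors, 1 was lower in both libraries, namely Cd96. It had 19.2 against 64.5 CPM in the KO library and 18.8 against 48.7 in the WT library. The value in KO NK cells lies below the 28.8 CPM that 3 UMIs make there, so its fold in the KO library is uncertain.

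Within the killing machinery, perforin and the granzyme inhibitor Serpinb9 were higher in NK cells, while Gzma and Gzmb did not separate the cell types. Of 16 eligible members 2 were higher and 1 lower, with medians of 0.35 and 0.10. Prf1 had 279 against 24.8 CPM in the KO library and 263 against 29.6 in the WT library, ratios of 11.2 (4.30 to 37.2) and 8.87 (6.25 to 12.7). Serpinb9, which protects the killer from granzyme B, had 701 against 119 and 604 against 251 CPM. Gzma was close, at 1364 against 953 CPM in the KO library and 1797 against 1586 in the WT library. Gzmb ran in opposite directions, at 884 against 581 CPM in the KO library and 460.1 against 1006 in the WT library. Gzmk was the lower member, with 1 UMI in KO NK cells and 8 in WT NK cells, against 15 and 225 in CD8 T cells. Gzmc, which had too few UMIs to be eligible and was chosen after its values were seen, had 221 against 4.96 CPM in the KO library and 150.3 against 12.7 in the WT library. Of its NK UMIs, 15 of 23 in the KO library and 44 of 48 in the WT library lay in 1 cell each.

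Chemokines followed a similar split. Of 7 eligible chemokines and cytokines, 3 were higher in NK cells and none lower, with medians of 0.87 and 0.99. Xcl1 had 1883 against 79.4 CPM in the KO library (ratio 23.7, 14.2 to 42.3) and 1393 against 99.5 in the WT library (ratio 14.0, 11.8 to 16.7). Its per-cell lowest, median and highest values were 0, 2.96 and 113 UMIs per 10000 in KO NK cells and 0, 6.72 and 89.5 in WT NK cells, and 13 of its 16 UMIs in KO CD8 T cells lay in 1 cell. Ccl3, an inflammatory chemokine, had 576 against 109 and 225 against 69.3 CPM. Tgfb1 had 231 against 99.2 and 285 against 106 CPM. Ccl5, a chemokine of cytotoxic lymphocytes, was close in both cell types, with ratios of 1.06 (0.911 to 1.23) in the KO library and 0.917 (0.86 to 0.977) in the WT library. Ifng, the main cytokine of type 1 immunity, had ratios of 1.88 and 1.29.

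Among transcription factors, Irf8 stood out. Of 25 eligible members 3 were higher, namely Irf8, Myb and the rule gene Eomes, and 1 was lower, Bcl11b. Irf8 (ENSMUSG00000041515, chr8:120736358-120756694), an interferon regulatory factor that NK cells and myeloid cells use, had 884 against 99.2 CPM in the KO library and 855 against 31.7 in the WT library. Myb had 384 against 109 and 444 against 193 CPM. Bcl11b, a factor of T cell commitment, had 48.0 against 496 and 47.0 against 346 CPM. Tbx21 was at 528 against 323 and 495 against 291 CPM, with ratios of 1.64 and 1.70. Irf8 was detected in 11 of 17 KO NK cells and 55 of 67 WT NK cells. The 6 myeloid markers together held the 2 and 20 UMIs given above. The dendritic cell list held 5 and 49 UMIs. Its 48.0 CPM in KO NK cells stood below the 122 of the remaining cells, and its 153 in WT NK cells above their 84.2. In KO CD8 T cells 18 of the 20 Irf8 UMIs lay in 1 cell.

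Cytokine receptors were led by Il2rb. It had 1345 against 288 CPM in the KO library (ratio 4.67, 3.42 to 6.46) and 1036 against 435 in the WT library (ratio 2.38, 2.09 to 2.71), with a UMI in 16 of 17 and 61 of 67 NK cells. Il7r, which T cells and most other innate lymphoid cells use, was the only lower member of the 21 eligible, with 5 UMIs in KO NK cells and 8 in WT NK cells, against 47 and 287 in CD8 T cells. Stat3, a transducer of several interleukin receptors, had 2200 against 1116 and 2820.3 against 1142 CPM, which reached 2-fold only in the WT library.

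Of 15 eligible chemokine and homing receptors, none was higher in NK cells and 5 were lower, with list medians of −0.17 and −0.08, near those of all genes. The 5 were Ccr9 and Itgae, which direct and hold T cells in the small intestine, Itga1 and Cxcr6, which mark resident lymphocytes, and S1pr1, the exit receptor. Itgae had 1 UMI in the NK cells of each library, 9.61 CPM in the KO library and 3.13 in the WT library, against 39.7 and 50.8 in CD8 T cells. That is under the floor of 3 UMIs, and only 5 of 35 KO CD8 T cells held an Itgae UMI. Itga1 had 1 UMI in KO NK cells with an Eomes UMI and 0 in those without. The KO side of both calls is too thin for a fold. Cxcr6 had 38.4 CPM in KO NK cells and 6.26 in WT NK cells, against 134 and 122 in CD8 T cells. Of 11 eligible ILC1 genes 5 were lower, namely Cxcr6, Itga1, Il7r, Inpp4b and the T cell receptor chain Cd3g, with medians of −1.57 and −1.68. Itgal, a subunit of LFA-1, was close in both cell types, with ratios of 1.19 and 1.12.

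The rest of the 12 highest genes were of mixed function. Eya1, a transcriptional coactivator with phosphatase activity, had 31 UMIs in KO NK cells and 83 in WT NK cells, against 2 and 3 in CD8 T cells, CPM ratios of 30.0 (7.64 to 259) and 164 (54.1 to 809.7). It was detected in 8 of 17 KO cells and 28 of 67 WT cells. Spry2, an inhibitor of growth factor signalling, had 31 UMIs against 2 in the KO library and 108 against 34 in the WT library, which are CPM ratios of 30.0 and 18.8. Rbpms (an RNA-binding protein), Tiam2 and Trio (exchange factors of small GTPases), Gem (a GTPase) and Vegfa (a vascular growth factor) made up the others, with ratios between 7.22 and 28.2.

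T cell genes filled the low end. Themis, an adaptor of T cell receptor signalling, had 38.4 against 1216 CPM in the KO library, where CD8 T cells were 31.6-fold (12.2 to 117) higher, and 84.5 against 1502 in the WT library. Cd5, a T cell receptor modulator, had no UMI in KO NK cells and 5 in WT NK cells. Ly6c2, Adam19, Fam169b, Ifi27l2a and S100a4 were also at 0 in KO NK cells and had 2 to 4 UMIs in WT NK cells. Against the floor of 3 UMIs, Ly6c2 was at least 5.85-fold lower in KO NK cells than in KO CD8 T cells, and S100a4 at least 1.72-fold. Sntb1, Bcl11b, Fam241a, Sgms1 and Ms4a6b had 2 to 5 UMIs in KO NK cells and 1 to 21 in WT NK cells. Of 12 eligible S100 and galectin genes, 4 were lower (S100a4, S100a6, Lgals3 and Crip1). Anxa2, an annexin, was higher, at 499.6 against 54.6 CPM in the KO library and 639 against 239.7 in the WT library. Outside the ranking, Cd3g, Cd8a, Trbc2, Trac, Inpp4b and Il7r were markers of other lymphocytes that were lower in NK cells.

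**Figure D4:**
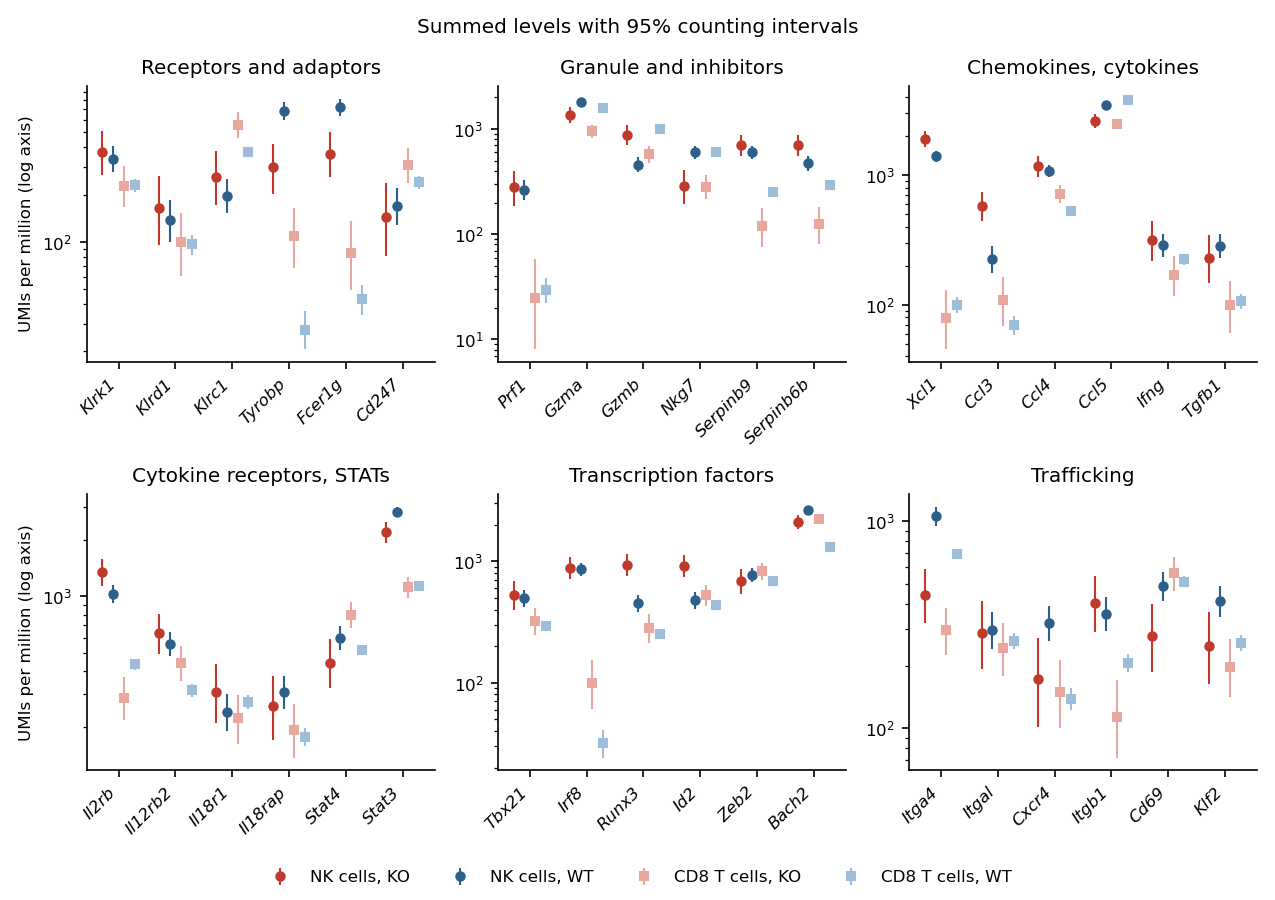
Levels in UMIs CPM (y axes, log scale, ranges differ between panels) of 36 genes in 6 roles, with 95% counting intervals, for NK cells (circles) and CD8 T cells (squares) of the KO library (red) and the WT library (blue). Tyrobp, Fcer1g, Prf1, Xcl1 and Irf8 separate the cell types in both libraries, whereas Gzma, Ccl5 and Itgal do not reach 2-fold in either.

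Between the genotypes, few genes of NK cells differed by 2-fold. The levels of 3 heat shock genes (Hspa1a, Hsp90aa1 and Dnaja1) and Ccl3 were higher in KO NK cells, and those of the adaptor Tyrobp, the integrin chain Itga4, Nkg7 and S100a10 were lower. Under the same minimums, counted over the NK cells alone, 908 genes were eligible. Of these, 17 (1.87%) were at least 2-fold higher in KO NK cells and 30 (3.30%) were lower, 5.18% in all. The values that chose these genes are described, not tested. The median over all 908 was −0.02, with 434 genes above 0 and 474 below. WT NK cells supply most UMIs, so a gene low in KO NK cells passed the minimum of 100 UMIs more easily than a gene low in WT NK cells, and the counts of the 2 directions cannot be set against each other. The counts rest on 17 KO cells. With Ebf1 and Pax5 allowed, 5 of the 17 higher genes and 11 of the 30 lower genes were still past 2-fold. With the highest cell of each gene left out, 9 and 27 were.

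Hspa1a had the highest ratio of the eligible genes ranked between genotypes. All 6 eligible heat shock genes were above 0 and 3 passed 2-fold, with a median of 0.83. Hspa1a, an inducible HSP70 gene, had 605 CPM in KO NK cells and 163 in WT NK cells (ratio 3.72, 2.53 to 5.48), but 32 of its 63 KO UMIs lay in 1 cell. It was detected in 9 of 17 KO cells and 10 of 67 WT cells. Hsp90aa1, a cytosolic HSP90, had 1018 and 466 CPM, with 52 of 106 KO UMIs in 1 cell, and its log2 ratio of 1.11 was 0.32 without the highest cell. Dnaja1, an HSP70 co-chaperone, had 490 and 213 CPM, and was under 2-fold with Ebf1 and Pax5 allowed (0.88), with a threshold of 2 UMIs (0.72) and without its highest cell (0.98). Hspa8, a constitutive HSP70, had 865 and 764 CPM. Hspa1b, a near-identical copy of Hspa1a, was at 615 and 523 CPM, and the split of reads between the pair is uncertain. Without the highest cell of each gene the list median was 0.39. In CD8 T cells Hspa1a also differed, at 223 CPM in the KO library and 36.0 in the WT library, and the list median there was 0.15. After thinning to 1000 UMIs, Hspa1a was found in 29.4% of KO NK cells and 4.48% of WT NK cells. The same shares in B cells, which can express this gene themselves, were 18.2% and 12.7%.

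Of 5 eligible activating receptors and adaptors 4 were below 0, but 1 of these, Klre1, belongs to the rule. The median of −0.96 includes it, and 1 member, Tyrobp, passed 2-fold. Tyrobp had 298 CPM in KO NK cells and 682 in WT NK cells (ratio 0.436, 0.289 to 0.638), and was found in 9 of 17 KO cells and 55 of 67 WT cells. Fcer1g had 365 and 720 CPM (ratio 0.507, 0.350 to 0.717), and Klra4 163 and 309.9. Klre1 was at 134 and 272 CPM. Klrk1 was the member above 0, at 375 and 338 CPM. Thinned to 1000 UMIs, Tyrobp was found in 17.6% of KO NK cells and 46.3% of WT NK cells, against 3.35% and 2.8% of B cells. Over all alternatives the list median ran from −1.27, without the highest cell of each gene, to 0.02, with no filter on low counts. The former step tends to lower KO over WT ratios.

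The killing genes had no common direction. Of 7 eligible members 5 were above 0 and 2 below, with a median of 0.10 and 1 member past 2-fold. That was Nkg7, a granule membrane protein, at 288 CPM in KO NK cells and 604 in WT NK cells (ratio 0.477, 0.313 to 0.703). It was also lower in KO CD8 T cells, at 283 against 605 CPM. Gzmb was higher, at 884 and 460.1 CPM (ratio 1.92, 1.46 to 2.51), with a per-cell median of 6.62 UMIs per 10000 in the KO library and 2.68 in the WT library. Gzma was lower, at a ratio of 0.759 (0.627 to 0.914), and Prf1 was level at 1.06 (0.670 to 1.63).

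Chemokines were mostly level apart from Ccl3. It had 576 CPM in KO NK cells and 225 in WT NK cells (ratio 2.56, 1.78 to 3.65), in 10 of 17 and 31 of 67 cells. Its log2 ratio of 1.32 was under 2-fold with Ebf1 and Pax5 allowed (0.63) and with a threshold of 2 UMIs (0.81). Xcl1 had a ratio of 1.35 (1.14 to 1.6), with 60 of 196 KO UMIs in 1 cell. Ccl4 and Ifng were at 1.09 (0.878 to 1.34) and 1.1 (0.716 to 1.65). Over the 6 eligible members the median was 0.13. Cxcl2, a chemokine for neutrophils, had 106 and 438 CPM, but 87 of 140 WT UMIs lay in 1 cell, and with a threshold of 2 UMIs its log2 ratio turned to 0.46.

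Transcription factors went both ways. Of 16 eligible factors 8 were above 0 and 8 below, with a median of −0.06. Tbx21 had a ratio of 1.07 (0.771 to 1.46), Irf8 of 1.03 (0.808 to 1.31) and Zeb2 of 0.886 (0.670 to 1.16). Runx3, a factor of cytotoxic lymphocytes, was the member past 2-fold, at 932 and 451 CPM (ratio 2.07, 1.58 to 2.69). However, 35 of its 97 KO UMIs lay in 1 cell, and the per-cell medians were 3.89 and 3.75 UMIs per 10000. Id2, which all innate lymphoid cells need, had 913 and 479 CPM, and its per-cell medians were 7.78 and 3.98. Zeb1 and Klf2 were lower, with ratios of 0.510 (0.396 to 0.650) and 0.609 (0.384 to 0.933).

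Trafficking genes were lower in KO NK cells for 5 of 6 eligible receptors, with a median of −0.64. Itga4 (ENSMUSG00000027009, chr2:79255426-79333123), which encodes the alpha-4 integrin chain that binds gut vessel ligands, had 442 CPM in KO NK cells and 1055 in WT NK cells (ratio 0.419, 0.301 to 0.571). It was detected in 10 of 17 and 62 of 67 cells, and the per-cell medians were 3.31 and 8.39 UMIs per 10000. CD8 T cells showed a like ratio of 0.429. Cxcr4 had 173 and 322 CPM, and Cd69 279 and 485. Itgb1, a beta-1 integrin chain, was the member above 0, at 403 and 357 CPM. The log2 ratio of Itga4, −1.24, was under 2-fold with Ebf1 and Pax5 allowed (−0.82) and with a threshold of 2 UMIs (−0.59).

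On the MHC class I, cytokine receptor and signalling, immediate early and p53 target lists, no eligible member passed 2-fold. The class II genes Cd74 and H2-Aa, on none of these lists, were past 2-fold on the lower side. All 6 eligible MHC class I genes were below 0 with none past 2-fold and a median of −0.43, and their median in CD8 T cells was 0.00. H2-K1 had 2104 and 2864 CPM (ratio 0.735, 0.631 to 0.852), though class I genes are near-identical and their split is uncertain. Of 9 eligible cytokine receptor and signalling genes 3 were above 0 and 6 below, with a median of −0.25. Il2rb was at 1345 and 1036 CPM (ratio 1.30, 1.06 to 1.59) and Stat3 at 2200 and 2820.3. The immediate early list of 22 eligible genes had a median of −0.12 in NK cells and 0.51 in CD8 T cells, and the NF-kB list of 9 a median of −0.16 and 0.51. Of 4 eligible p53 targets none passed 2-fold. Cdkn1a, the p53 target p21, had 375 and 232 CPM (ratio 1.62, 1.07 to 2.42). DNA repair, interferon gamma response and inhibitory receptor genes had no eligible member.

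All 4 eligible S100 and galectin list genes were below 0, with a median of −0.57, and S100a10, a partner of annexin A2, passed 2-fold with 13 UMIs in KO NK cells and 107 in WT NK cells. Its ratio was 0.373 (0.192 to 0.665), and that of CD8 T cells 0.362. Anxa2 itself was at 499.6 and 639 CPM.

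The other named genes were Eif4e (the cap-binding factor), Usp15 (a deubiquitinase), Camk1d (a calmodulin-dependent kinase), Senp2 (a SUMO protease), Ddx10 (an RNA helicase), Ints6 (an Integrator subunit), Tnfrsf9 (the receptor 4-1BB) and Nup153 (a nuclear pore protein), all higher. Their ratios lay between 2.37 and 3.02. Camk1d was at 1719.7 and 664 CPM, with a UMI in 17 of 17 KO cells and 61 of 67 WT cells, and it had a ratio of 2.09 in CD8 T cells. On the lower side were Casp4 (the inflammatory caspase-11), Cd74 (the class II invariant chain), Ripor2 (a regulator of cell polarity), Setd5, Vps54 (a vesicle tether), Plcxd2, Ccnd3 (cyclin D3), Airn and Foxp1 (a forkhead factor), with ratios between 0.291 and 0.423. Ripor2 had 288 and 917 CPM, in 9 of 17 and 59 of 67 cells. In WT NK cells 94 of 160 Cd74 UMIs lay in 1 cell. Airn is antisense to Igf2r, and whether the counting used strand is not given. Igha and Jchain, plasma cell transcripts found in nearly every NK cell, had ratios of 0.651 and 0.682.

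Of these 24 genes, 5 stayed past 2-fold with a threshold of 2 UMIs, with Ebf1 and Pax5 allowed and without the highest cell of each gene. They were Hspa1a, Camk1d and Usp15 on the higher side and Plcxd2 and S100a10 on the lower side. Leaving out the highest cell tends to lower KO over WT ratios, so passing it says little for the lower side. In CD8 T cells, of the genes also eligible there, 3 of 17 higher genes and 5 of 29 lower genes passed 2-fold in the same direction. In all, 1.66% of 3548 genes were higher and 4.90% lower in KO CD8 T cells, 6.57% together.

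**Figure D5:**
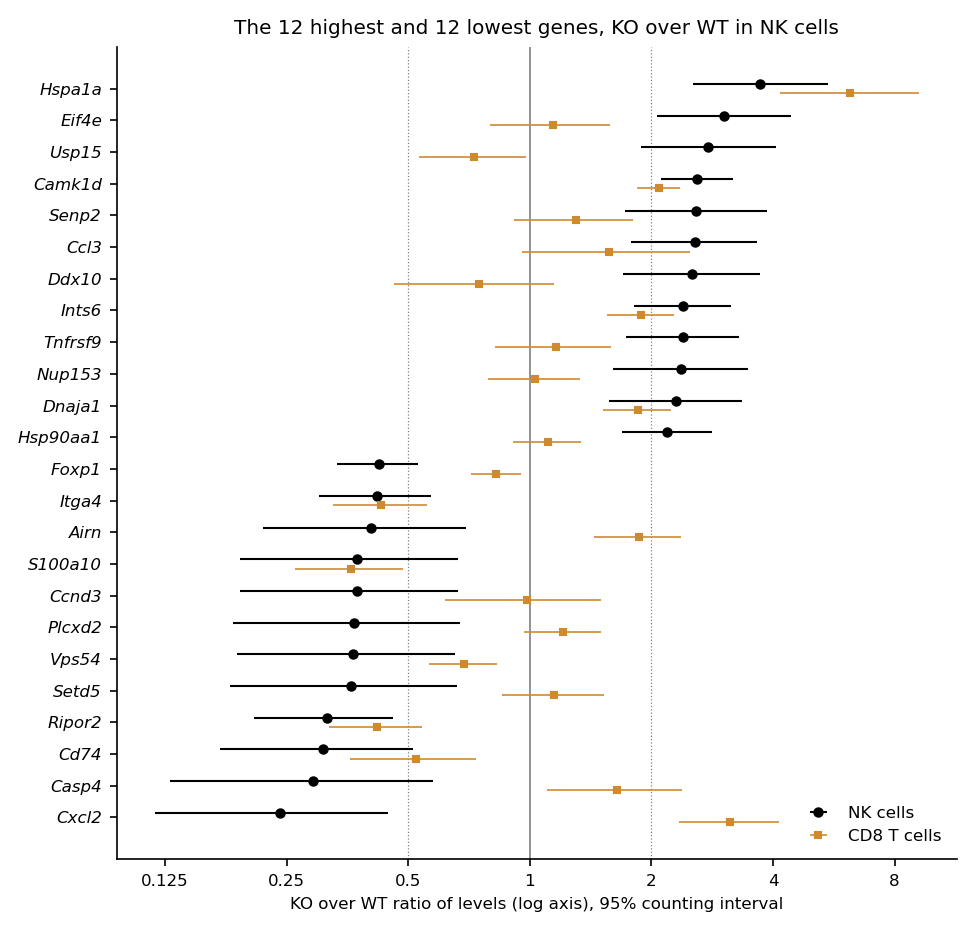
KO over WT ratio of levels (x axis, log scale) of the 12 highest and 12 lowest genes of NK cells, with 95% counting intervals, in NK cells (black circles) and CD8 T cells (orange squares), and dotted lines at 2-fold. The NK values were used to choose the genes. Hspa1a, Camk1d, Itga4, Ripor2 and S100a10 lie on the same side past 2-fold in CD8 T cells, and Cxcl2, Casp4, Airn and Usp15 are among those on the opposite side of 1 there.

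The NK cells varied among themselves in which rule gene they carried. Eomes supplied 48.1% of the rule UMIs in KO cells and 49.8% in WT cells, and it was the only rule gene in 3 KO cells and 10 WT cells. Cells with an Eomes UMI numbered 13 in the KO library and 57 in the WT library, and cells without numbered 4 and 10. Rora, an orphan nuclear receptor that innate lymphoid cells use, was lower in Eomes-positive cells of both libraries. It had 206 CPM in Eomes-positive cells and 2453 in Eomes-zero cells of the KO library, where 2 of 4 cells held all 53 UMIs. In the WT library it had 526 and 1789 CPM, found in 31 of 57 and 7 of 10 cells. Of the 223 Rora UMIs in WT NK cells, 54 lay in 1 cell. Which group that cell fell in was not looked at, so the WT difference may rest on it. Gzma was at 1491 and 879 CPM in the KO library and 1899 and 1147 in the WT library. Xcl1 ran the other way, at 1515 and 3286 and at 1327 and 1812 CPM. However, 60 of its 71 UMIs in Eomes-zero KO cells lay in 1 cell. In the WT library single Eomes-zero cells held 27 and 24 of 79 UMIs, so the direction rests on few cells. Cd27, a receptor of less mature NK cells, had 5 and 21 UMIs in Eomes-positive cells and 0 in Eomes-zero cells, which at 4 and 10 cells says little. The median depth was 4253 and 5744 UMIs in the KO library and 4465 and 4141 in the WT library.

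Of 12 eligible mature NK genes, Prf1 and Irf8 were higher than in CD8 T cells and Ly6c2 and S1pr1 lower, and of 12 immature NK genes Xcl1 was higher and Il7r lower. Between genotypes no eligible member of either list passed 2-fold, with medians of −0.17 over 7 mature genes and 0.12 over 5 immature genes. Klrg1 had 19.2 CPM in KO NK cells and 12.5 in WT NK cells, Itgam 38.4 and 43.8, and S1pr5 no UMI in either. Kit, which early NK cells and other innate lymphoid cells carry, had 5 UMIs in KO NK cells and 41 in WT NK cells, 48.0 and 128 CPM, against 4.96 and 7.94 in CD8 T cells. These 4 genes, like Cd27 and Rora, were chosen after their values were seen. Perforin was present just outside the rule as well as inside it. With exactly 2 rule UMIs, 17 KO cells had 172 CPM of Prf1 and 36 WT cells had 193. With exactly 3, the 4 KO cells had 266 and the 28 WT cells 217, and with 4 or more the 13 KO cells had 281 and the 39 WT cells 292. Tyrobp, from 2 to 3 to 4 or more, was at 265, 66.6 and 337 CPM in the KO library and at 409, 611 and 728 in the WT library.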

How the data were processed

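The deposited files hold raw UMI counts per gene and barcode for 1 KO and 1 WT library. The file headers name Cell Ranger 7.0.0, and the submitters' processing notes name GRCm38. For the annotation, intron counting and use of strand, nothing is given in the sources used here. The KO file held 8794 barcodes with 49590755 UMIs and the WT file 10958 with 64786549. Filters on UMIs, genes and mitochondrial share left out 113 and 62. Of 54838 gene IDs, 54809 (99.9%) were in GENCODE M21, which gave positions.

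UMIs were summed over the cells of a type and library. Levels carry exact Poisson intervals, ratios conditional binomial intervals and shares Clopper-Pearson intervals, all at 95%, for counting error only. Detection shares were taken after thinning each cell to 1000 UMIs (1 KO and 1 WT CD8 T cell, 35 KO and 12 WT B cells were shallower and left out), with B cells as the type that should lack the gene. No doublets were removed in the reported values. Scrublet ran in scanpy 1.11.5 on Python 3.11.15 with numpy 2.4.6, scipy 1.17.1 and pandas 2.3.3.

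The rule, its markers, the 23 gene lists and 15 marker lists were chosen with earlier results of these data known. Of 516 list genes, 4 were not in the annotation. The result of 1 marker list is not reported here. Named genes were Dpf2, the genes of the rule, the 5 given markers, the 12 highest and 12 lowest genes of each comparison (against CD8 T cells by the smaller of the 2 libraries' log2 ratios), and from each list up to 6 members with most UMIs and any past 2-fold. Segments of immunoglobulins and T cell receptors, Xist, Y-linked, haemoglobin, mitochondrial and unnamed genes, rule genes and markers of other types stayed out of the ranking, the last named apart up to 6. Promoters came from RefSeq GRCm38.p6. Alternatives were another UMI threshold, doublets or T cell transcripts left out, a mitochondrial maximum of 10%, another added constant, scaling, filter or depth, and cells split by sex transcripts.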

Additional observations from a re-analysis of the deposited data

Results flagged for a closer look

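For 4 of the 24 genes named between genotypes, NK cells and CD8 T cells differed in opposite directions with both counting intervals away from 1. The difference between the cell types was not tested. Usp15 had a KO over WT log2 ratio of 1.42 in NK cells and −0.44 in CD8 T cells, and in NK cells it was 1.02 with Ebf1 and Pax5 allowed and 1.03 with a threshold of 2 UMIs. Cxcl2 was at −1.95 in NK cells and 1.56 in CD8 T cells, with 87 of its 140 WT NK UMIs in 1 cell. In NK cells it was −0.72 without the highest cell, and with a threshold of 2 UMIs it turned to 0.46, the same direction as in CD8 T cells. Casp4 was at −1.67 in NK cells and 0.66 in CD8 T cells, with at most 9 UMIs in any WT NK cell. With Ebf1 and Pax5 allowed it was −0.91 in NK cells, under 2-fold. Airn was at −1.25 in NK cells and 0.86 in CD8 T cells, and in NK cells it was −0.45 with Ebf1 and Pax5 allowed, −0.62 with a threshold of 2 UMIs and −1.98 without its highest cell.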

How the results depend on the processing

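No paired analysis was possible because each genotype has 1 library, and for the same reason no library could be left out. The NK share ratio lay between 0.297 and 0.467 under all its alternatives. Counts of genes past 2-fold depended on the filter and the cells. Higher in KO NK cells were 17 genes as reported. There were 10 with a threshold of 2 UMIs, 2 with a filter of 300 UMIs, 967 with no filter beyond 1 UMI, 0 with cells thinned to 1000 UMIs, 1 among cells with Xist but no Y-linked UMI and 6 among cells with the reverse (written as female and male cells). Lower were 30, against 18 with a threshold of 4 UMIs, 17 without cells holding Cd3g, Trac or Trdc, 18 with a constant of 50 CPM, 5 with the filter of 300, 1313 with no filter, 3 thinned and 10 in female cells. NK cells were higher than CD8 T cells in 68 genes, against 25 with the filter of 300, 175 with no filter, 21 thinned, 21 in female and 39 in male cells. They were lower in 116, against 52 with the constant of 50, 61 with the filter of 300, 189 with no filter, 42 thinned and 71 in female cells. Fewer cells, UMIs or eligible genes shrink such counts by construction. Added after the data were seen, allowing Ebf1 and Pax5 gave 9 higher genes between genotypes, and leaving out the highest cell of each gene gave 10 higher and 58 lower. The latter takes 1 of 17 KO cells but 1 of 67 WT cells, which by itself tends to move genes to the lower side. With a threshold of 2 UMIs, 2 genes turned direction, Cxcl2 between genotypes (0.46) and S100a4 against CD8 T cells (0.0 for the smaller log2 ratio), and the cause was not tested. The other log2 ratios of the 24 ranked genes of each comparison kept their sign under the alternatives in which each gene was still measured.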

Other observations

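Survival genes were not described above. Of 4 eligible members of the BCL2 family list, none passed 2-fold between genotypes and the median was −0.30. Bcl2, which interleukin 15 sustains, had 432 CPM in KO NK cells and 258 in KO CD8 T cells, and 548 in WT NK cells and 185 in WT CD8 T cells. Bcl2l11, which encodes its antagonist BIM, had 807 and 581 CPM in the KO library and 974 and 355 in the WT library. Both were higher in NK cells in each library, but neither reached 2-fold in the KO library.

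The cell cycle list of 31 genes summed to 1672 CPM in KO NK cells and 1925 in KO CD8 T cells, and to 1399 in WT NK cells and 3553 in WT CD8 T cells. Of 14 eligible members 2 were counted as lower, Ube2c and Birc5, but in the KO library each had 0 UMIs in NK cells and 5 in CD8 T cells, too few for a fold. In the WT library Ube2c had 0 UMIs in NK cells and 112 in CD8 T cells, and Birc5 2 and 99. Among the other BAF subunits, Arid1a had 249.8 CPM in KO NK cells and 254 in WT NK cells, and Arid1b 452 and 335. Of 3 eligible BAF genes none passed 2-fold, with a median of −0.02. The only eligible gene of the type I interferon list stood at 0.12 and that of the cell cycle list at 0.17, and the 2 eligible glycolysis genes had a median of −0.42. Rora, the only eligible ILC1 gene, was at −0.05.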
